A study of Mus musculus with 8 samples.

Results

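The 10 genes described here encode proteins by which phagocytes find and take up dying cells: the receptor tyrosine kinases Tyro3, Axl and Mertk, their ligands Gas6 and Pros1, the bridging protein Mfge8, the scavenger receptors Stab1 and Stab2, and the endocytic receptor Lrp1 with the adaptor Dab2. They were chosen by name, with earlier results of these data known, among 19938 genes that had a probe set with a single gene symbol. Each was read from its probe set with the highest mean over 8 Affymetrix arrays, and all 10 had one. Values are log2 intensities, so that a difference of 1 is a 2-fold difference. Levels of different genes come from different probes and are not compared with each other.

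The arrays hold RNA of mononuclear phagocytes sorted by flow cytometry from the colonic lamina propria, the tissue beneath the gut epithelium, or from the spleen. All mice were C57BL/6 and carried Cx3cr1gfp/+, in which green fluorescent protein stands in place of 1 copy of the fractalkine receptor gene, so every group, controls included, had a single working copy of Cx3cr1. Of the colonic groups 4 were CX3CR1hi: resident macrophages, macrophages reconstituted from monocytes and F4/80hi cells at steady state, and F4/80hi cells at day 4 of colitis caused by dextran sodium sulphate (DSS), an agent toxic to the epithelium. A pair of colonic groups of the same colitis day were CX3CR1int, 1 Ly6Clo and 1 Ly6Chi, and splenic Ly6Chi monocytes were taken at steady state and in colitis. Each group has 1 array. The resident, reconstituted and steady-state splenic groups were labelled female and the other 5 male. The labels give no age, do not say how many mice gave a sample or whether mice were pooled, and do not describe how the reconstituted macrophages were obtained.

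Macrophages clear dying cells by recognising phosphatidylserine, a lipid that apoptotic cells expose on their surface. Gas6 and Pros1 bind this lipid at one end and a TAM receptor (Tyro3, Axl or Mertk) at the other, and the activated receptor both drives engulfment and dampens inflammatory signalling. Mfge8 links the lipid to integrins, while the stabilins bind it directly. Lrp1 takes up complexes that contain calreticulin and other ligands, and Dab2 couples endocytic receptors to clathrin. In the gut, resident macrophages are known for taking up dying epithelial cells without provoking inflammation.

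Promoter sequences are shown for Mertk, Gas6, Stab1 and Dab2, the genes of the set whose levels differed most between colonic CX3CR1hi cells and splenic monocytes. They are the bases just before the annotated start in RefSeq (mouse build GRCm38.p6), 5′ to 3′ on the strand of the gene: chr2:128698665-128698914 (plus strand) for Mertk, chr8:13494536-13494785 (minus strand) for Gas6, chr14:31168652-31168891 (minus strand) for Stab1 and chr15:6299539-6299787 (plus strand) for Dab2. Capitals mark the GC box GGGCGG or the PU.1 and ETS core GAGGAA on either strand.
Mertk: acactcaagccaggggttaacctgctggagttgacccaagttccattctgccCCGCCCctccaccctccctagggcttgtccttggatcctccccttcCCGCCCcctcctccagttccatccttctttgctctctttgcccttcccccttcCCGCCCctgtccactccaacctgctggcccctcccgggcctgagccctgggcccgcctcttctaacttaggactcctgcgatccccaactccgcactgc
Gas6: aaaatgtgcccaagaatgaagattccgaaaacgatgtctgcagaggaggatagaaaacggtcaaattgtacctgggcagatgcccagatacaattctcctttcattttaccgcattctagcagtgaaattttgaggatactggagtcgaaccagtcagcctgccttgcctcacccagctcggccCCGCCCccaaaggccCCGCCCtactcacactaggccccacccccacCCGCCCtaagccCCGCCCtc
Stab1: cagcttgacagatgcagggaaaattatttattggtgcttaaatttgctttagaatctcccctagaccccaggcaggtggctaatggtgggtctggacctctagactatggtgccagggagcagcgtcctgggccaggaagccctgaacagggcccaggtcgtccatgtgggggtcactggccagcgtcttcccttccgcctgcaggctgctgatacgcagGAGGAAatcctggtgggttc
Dab2: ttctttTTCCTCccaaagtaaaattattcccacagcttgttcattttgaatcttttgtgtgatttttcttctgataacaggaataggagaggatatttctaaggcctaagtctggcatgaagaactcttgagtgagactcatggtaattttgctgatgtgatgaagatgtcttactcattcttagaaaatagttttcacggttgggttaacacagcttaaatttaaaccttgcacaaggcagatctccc
The capitals in Mertk and Gas6 are GC boxes, 3 and 4 of them, and in Stab1 and Dab2 they are 1 GAGGAA each. Neither motif is in all 4 windows. Over the windows of 250 bases of all 10 members, 11 with a second Dab2 start, GGGCGG lay in 7 and GAGGAA in 5, against 32.7% and 23.3% of 32851 promoters of the same length. Dab2 held GAGGAA in both of its windows. Not all windows lay before the annotated gene: those of Tyro3 and the second Dab2 start had 0 bases outside it. The windows of Axl and Stab2 had 59 and 154 bases outside it. The nuclear receptor motif AGGTCA lay in 1 window (14.0% of promoters), and the AP-1 motif TGANTCA and the E-box CACGTG in 0 (6.75% and 6.02%). Each motif was searched on both strands, none of the 5 contains another, and a match describes the letters alone.

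Array medians lay between 5.77 and 5.87, and a level below the median of its array is called dim here. Of 11 macrophage markers 10 were measured, and their mean was 10.81 to 11.09 in the CX3CR1hi arrays, 8.34 and 9.13 in the Ly6Clo and Ly6Chi arrays, and 8.61 and 8.73 in the splenic arrays. The mean of 8 monocyte markers ran the other way, from 7.02 to 7.29 in CX3CR1hi arrays to 11.71 and 11.74 in spleen, with 8.48 in Ly6Clo and 11.11 in Ly6Chi cells. The Ly6Clo array had all 11 conventional dendritic cell markers above its median, with a mean of 10.01 against 7.68 in Ly6Chi cells and 6.21 to 6.71 elsewhere. Its Flt3, the dendritic cell growth factor receptor, was at 11.16. Of its 10 macrophage markers 9 were at or above its median, with Cd68 at 11.37 and Csf1r at 10.65. Its Trem2, a macrophage receptor, was at 5.96, and its Tmem119 was dim at 5.38. Epithelial RNA was present in every colonic array. The mean of 16 epithelial markers was 10.81 to 11.69 in CX3CR1hi, 9.51 and 9.74 in CX3CR1int, and 4.91 (0 of 16 above the median) and 5.83 (7 of 16) in the steady-state and colitis splenic arrays. Other colonic RNA went with it: the mean of 9 stromal markers was 6.62 to 8.08 in colon and 5.73 and 5.75 in spleen, with Dcn, a matrix protein of fibroblasts, at 9.77 to 11.43 and 5.19 to 5.26. The mean of 7 plasma and B cell markers was 7.30 to 9.02 in colon and 6.11 and 6.89 in spleen. Of these, Jchain of plasma cells was at 10.71 to 12.46 in colon and 6.02 and 7.03 in spleen. Ms4a1 and Cd79a went the other way, at 4.46 to 4.92 and 4.83 to 5.64 in CX3CR1hi arrays against 5.86 and 7.03, and 5.77 and 7.14, in spleen. The means of 8 pancreatic acinar markers were 8.59, 7.93 and 8.16 in the resident, colitis F4/80hi and Ly6Chi arrays and 5.15 to 5.92 elsewhere. The part of these cells in the results below was not tested. T and NK cell, mast cell and enteric glia markers were dim on all 8 arrays. The steady-state splenic array, labelled female, carried Xist (10.04) together with the Y-linked Eif2s3y (10.28), whereas the female-labelled resident and reconstituted arrays had Eif2s3y at 4.36 and 4.34. Differences of the tested members between populations and spleen are given with and without this array, and those of other genes with it. In RNA of sorted bulk cells, fewer cells of a type and less RNA per cell cannot be told apart.

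**Figure D1:**
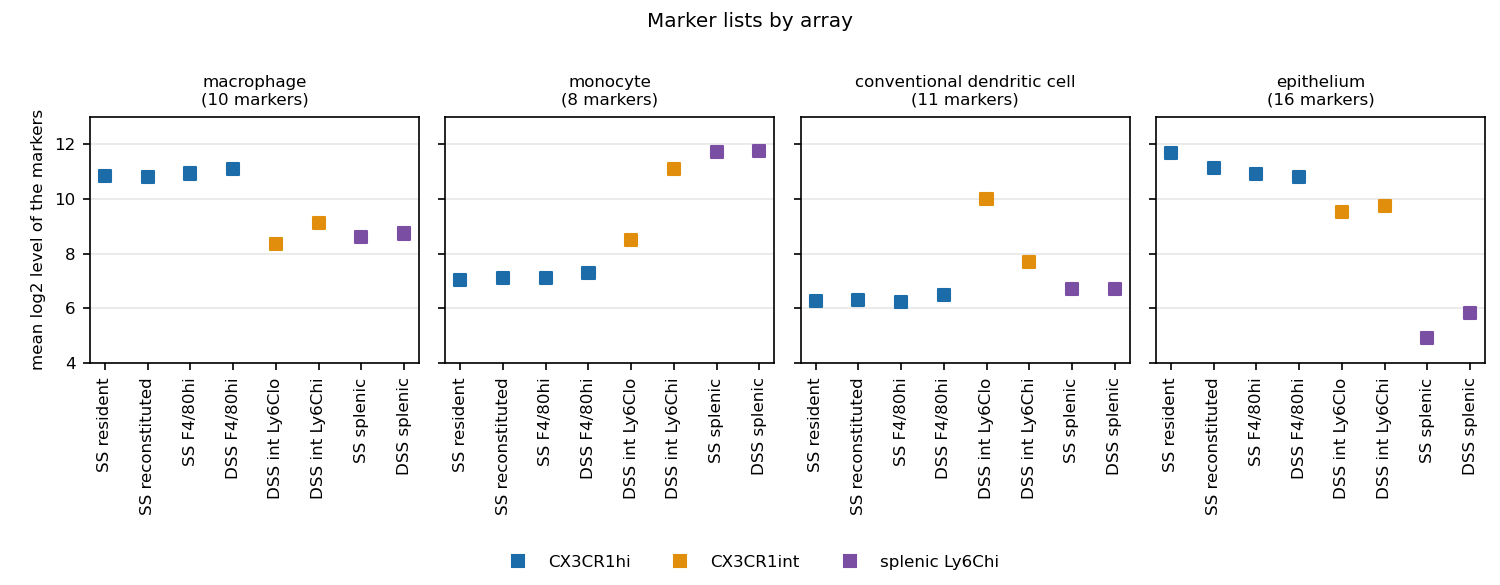
Mean log2 level of the macrophage, monocyte, dendritic cell and epithelial markers (vertical axis) on each of the 8 arrays (horizontal axis), with 1 point per array. Epithelial means are above 9 on all colonic arrays, and the dendritic cell list stands highest on the Ly6Clo array at 10.01.

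Of the TAM receptors, Mertk, the one most tied to engulfment by macrophages, marked the colonic CX3CR1hi arrays. Its level was 10.51 in resident, 10.96 in reconstituted, 10.79 in steady-state F4/80hi and 10.79 in colitis F4/80hi cells. It was 7.23 in Ly6Clo and 8.26 in Ly6Chi cells, and 5.77 and 6.30 in steady-state and colitis splenic monocytes. The 3 populations did not overlap, and the steady-state splenic value was dim, just below its array median. Populations were compared in a limma fit of all 8 arrays, with p-values adjusted over 10673 genes by the Benjamini-Hochberg method and a gene called below 0.05. Mertk was 4.73 higher in CX3CR1hi than in splenic cells (SE 0.29, 95% interval 4.05 to 5.40, limma adjusted p = 2.06e-05), and 4.46 higher without the steady-state splenic array. It was lower in CX3CR1int than in CX3CR1hi cells, with a log2 difference of -3.02 (SE 0.29, limma adjusted p = 0.000553). CX3CR1int cells stood 1.71 above splenic cells (SE 0.34, limma adjusted p = 0.0107), a call that was lost without the steady-state splenic array (1.44, limma adjusted p = 0.0936) and with the arrays of these populations alone (adjusted p = 0.08).

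Axl, a TAM receptor induced by interferon that has Gas6 as its ligand, separated CX3CR1hi cells from both other populations by a smaller step. It was at 10.96, 11.15, 11.05 and 11.14 in resident, reconstituted, steady-state F4/80hi and colitis F4/80hi cells. Ly6Clo and Ly6Chi cells had 9.31 and 8.70, and the splenic arrays had 9.23 at steady state and 8.98 in colitis. All CX3CR1hi arrays lay above the rest, whereas the CX3CR1int and splenic values overlapped. CX3CR1hi cells exceeded splenic cells by 1.97 (SE 0.18, limma adjusted p = 0.000117) or 3.93-fold, and by 2.10 without the steady-state splenic array (limma adjusted p = 0.00186). CX3CR1int cells differed from CX3CR1hi cells by -2.07 (SE 0.18, limma adjusted p = 0.000364). CX3CR1int and splenic cells differed by -0.10 (95% interval -0.58 to 0.39, limma adjusted p = 0.757; 0.03 without that array), so a difference of more than 0.58 in either direction lay outside the interval. Tyro3, the TAM receptor known from the nervous system and from dendritic cells, was dim on every array, with values from 4.47 to 4.78, and was not tested.

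**Figure D2:**
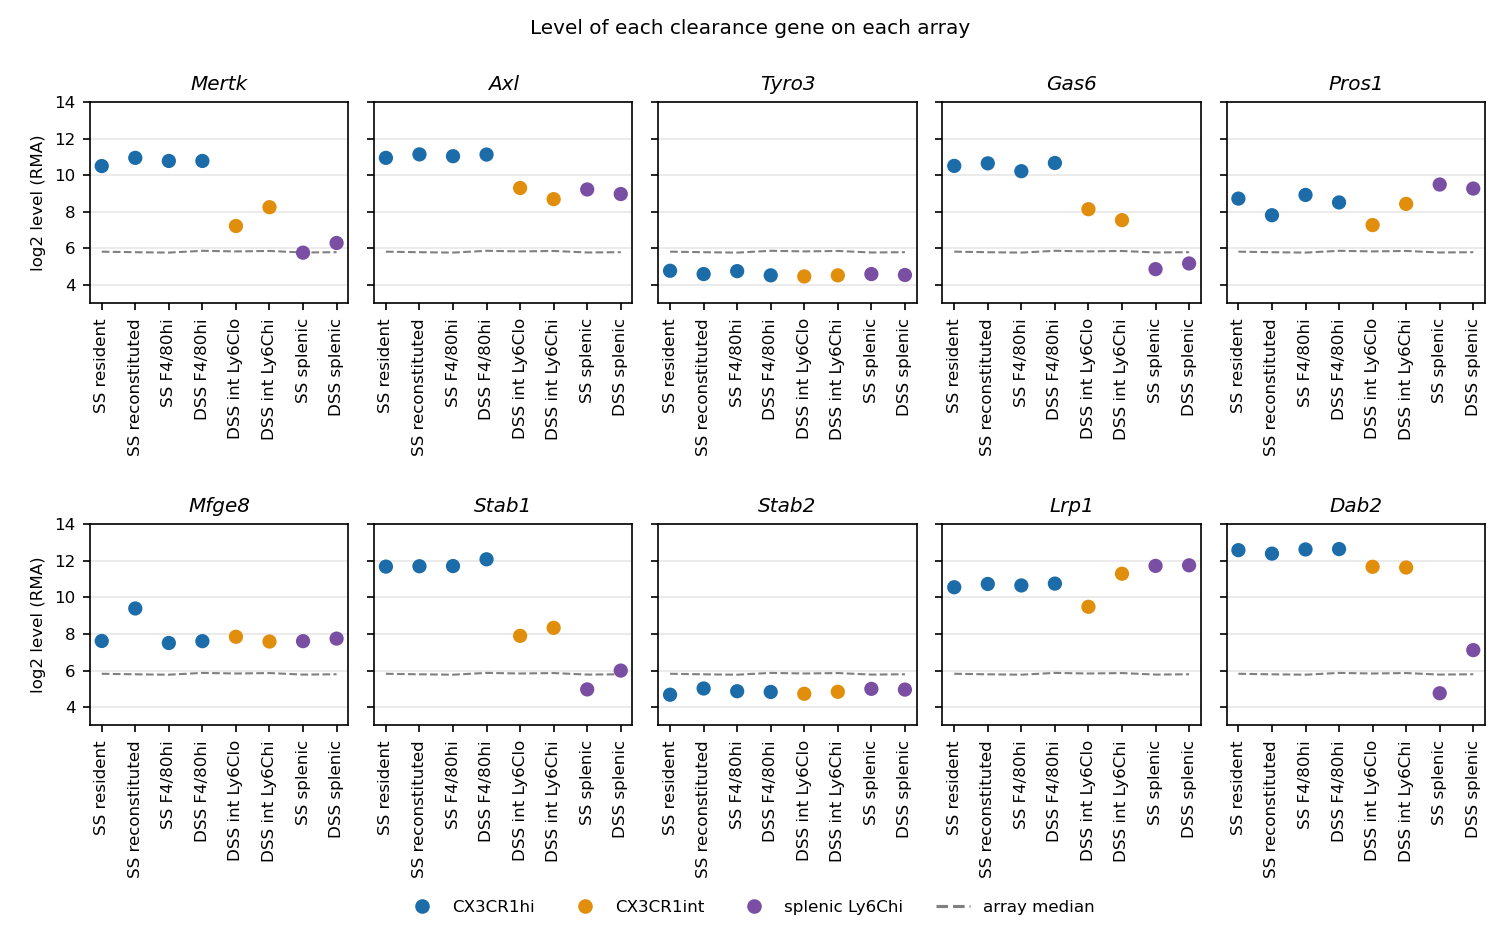
Log2 level of each of the 10 genes (vertical axis, 1 panel per gene) on the 8 arrays (horizontal axis), 1 point per array, coloured by population, with a dashed line at the array median. Mertk, Axl, Gas6 and Stab1 are highest on the 4 CX3CR1hi arrays, Tyro3 and Stab2 are below the array median throughout, and Mfge8 stands out at 9.40 on the reconstituted array.

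The TAM ligands went different ways. Gas6, which activates all TAM receptors, was at 10.52, 10.66, 10.23 and 10.68 in resident, reconstituted, steady-state F4/80hi and colitis F4/80hi cells. It was at 8.15 in Ly6Clo and 7.55 in Ly6Chi cells, and dim in spleen at 4.87 and 5.18. No populations overlapped. CX3CR1hi cells were 5.50 above splenic cells (SE 0.21, limma adjusted p = 6.59e-06), and because both splenic values were dim no fold is given. CX3CR1int cells stood between them, at -2.67 from CX3CR1hi cells (SE 0.21, limma adjusted p = 0.000249) and 2.83 above splenic cells (SE 0.24, limma adjusted p = 0.000438). Without the steady-state splenic array the differences from spleen were 5.34 and 2.67, and both were still called.

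Pros1, the vitamin K-dependent anticoagulant that serves as a ligand of Mertk and Tyro3, had its highest values in the spleen. The splenic arrays were at 9.50 at steady state and 9.28 in colitis, and all 6 colonic arrays lay below them. Resident, reconstituted, steady-state F4/80hi and colitis F4/80hi cells had 8.73, 7.82, 8.93 and 8.52, and Ly6Clo and Ly6Chi cells had 7.28 and 8.44. The reconstituted array was the lowest of the CX3CR1hi arrays. CX3CR1int cells were lower than splenic cells by a log2 difference of -1.53 (SE 0.44, limma adjusted p = 0.0408). That call was lost in 10 of 16 alternative settings, among them the fit without the Ly6Clo array (-0.95, adjusted p = 0.147) and the fit without the steady-state splenic array (-1.42, adjusted p = 0.195). The difference of CX3CR1hi from splenic cells was -0.89 (SE 0.38, limma adjusted p = 0.0851), or -0.78 without the steady-state splenic array, and was not called, but it was called when either CX3CR1int array was left out (adjusted p = 0.0333 without Ly6Clo and 0.0332 without Ly6Chi). CX3CR1int and CX3CR1hi cells differed by -0.64 (SE 0.38, 95% interval -1.52 to 0.24, limma adjusted p = 0.238), by -1.22 (adjusted p = 0.0438) without the Ly6Chi array and by -0.06 (adjusted p = 0.919) without the Ly6Clo array.

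Mfge8, the milk fat globule protein that bridges phosphatidylserine to integrins, was level over most arrays. It was at 7.62 in resident, 7.51 in steady-state F4/80hi and 7.61 in colitis F4/80hi cells, at 7.85 and 7.59 in Ly6Clo and Ly6Chi cells, and at 7.61 and 7.75 in spleen. The reconstituted array alone stood apart, at 9.40, or 1.78 above resident cells. On the same array Mmp9, a matrix protease stored in neutrophil granules, was at 11.88 against 6.32 to 7.04 on the other CX3CR1hi arrays. The other 8 neutrophil markers had a mean of 5.98 there against 5.74 to 5.97. Of these, S100a8, S100a9, Camp, Ngp and Cxcr2 were dim, at 5.25, 4.91, 4.41, 4.70 and 4.83. Ly6g, Csf3r and Retnlg were above the array median, at 8.32, 9.14 and 6.29. On the other CX3CR1hi arrays they were at 7.36 to 9.30, 9.21 to 9.83 and 5.09 to 6.48. The part of other cells in the Mfge8 value was not tested. No population difference was called: CX3CR1hi against splenic cells gave 0.36 (SE 0.50, 95% interval -0.81 to 1.53, limma adjusted p = 0.573; 0.29 without the steady-state splenic array), and the interval covers a 2-fold difference upwards. Without the reconstituted array it was -0.10 (adjusted p = 0.572). CX3CR1int against splenic cells gave 0.04 (SE 0.58, limma adjusted p = 0.964), or -0.02 without the steady-state splenic array, and CX3CR1int against CX3CR1hi cells -0.31 (SE 0.50, limma adjusted p = 0.673), or 0.14 without the reconstituted array.

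Of the stabilins, Stab1 (stabilin-1), a scavenger receptor of macrophages and sinusoidal endothelium, was called in every comparison of populations. It was at 11.69, 11.71 and 11.72 in resident, reconstituted and steady-state F4/80hi cells and at 12.09 in colitis F4/80hi cells. Ly6Clo and Ly6Chi cells had 7.90 and 8.34, and splenic monocytes had 4.97 at steady state and 6.00 in colitis. The populations did not overlap, and the steady-state splenic value was dim. CX3CR1hi cells were 6.31 above splenic cells (SE 0.28, limma adjusted p = 7.27e-06). CX3CR1int cells were at -3.68 from CX3CR1hi cells (SE 0.28, limma adjusted p = 0.000242) and 2.63 above splenic cells (SE 0.33, limma adjusted p = 0.00189). Without the steady-state splenic array these differences from spleen became 5.80 and 2.12, both still called. Stab2, known from sinusoidal endothelium of liver, spleen and lymph node, was dim on all arrays at 4.68 to 5.02. Endothelial markers had their lowest means in spleen and their highest in Ly6Chi cells. The mean of 12 endothelial markers was 5.82 to 6.00 in the CX3CR1hi arrays, 5.75 and 6.47 in Ly6Clo and Ly6Chi cells, and 5.12 and 5.13 in spleen. Of these, Cdh5, the cadherin of vessel walls, was at 6.34 to 7.15 in CX3CR1hi arrays, 5.85 and 7.49 in Ly6Clo and Ly6Chi cells, and 4.90 and 4.92 in spleen. Kdr was instead highest in Ly6Clo and Ly6Chi cells, at 7.27 and 6.27, and dim at 4.99 to 5.23 in CX3CR1hi arrays and 4.91 and 4.78 in spleen. Tie1, Cldn5 and Robo4 were dim on all arrays. The mean of 7 lymphatic or sinusoidal markers was 6.33 to 6.91 in CX3CR1hi, 6.47 and 6.55 in CX3CR1int and 5.92 and 6.01 in splenic arrays. It was highest on the colitis F4/80hi array. Prox1 and Flt4 were dim throughout. Lyve1 was at 7.83 to 9.63 in CX3CR1hi arrays, 7.81 and 7.42 in Ly6Clo and Ly6Chi cells, and 5.76 in spleen. Pdpn was at 6.61 to 7.82 in CX3CR1hi arrays, 6.16 and 7.48 in Ly6Clo and Ly6Chi cells, and 5.62 to 5.67 in spleen. The part of endothelial cells in the Stab1 result was not tested.

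Lrp1, the large endocytic receptor that serves as a receptor for calreticulin on dying cells, had its highest values in splenic monocytes, 11.73 at steady state and 11.76 in colitis. It was at 10.56, 10.74, 10.66 and 10.76 in resident, reconstituted, steady-state F4/80hi and colitis F4/80hi cells. The CX3CR1int pair was split, with 9.49 in Ly6Clo and 11.30 in Ly6Chi cells, which lay on either side of all CX3CR1hi values. CX3CR1hi cells differed from splenic cells by -1.06 (SE 0.41, limma adjusted p = 0.0633) and were not called in the fit of all arrays. The same difference was called when the wide CX3CR1int pair was left out of the fit (adjusted p = 0.000163). Against CX3CR1hi cells the CX3CR1int mean differed by -0.29 (SE 0.41, limma adjusted p = 0.632), which became 0.62 (adjusted p = 0.0172) without the Ly6Clo array and -1.20 (adjusted p = 0.00106) without the Ly6Chi array. Without the steady-state splenic array the difference of CX3CR1hi from splenic cells was -1.08 (adjusted p = 0.202). CX3CR1int against splenic cells gave -1.35 (SE 0.48, limma adjusted p = 0.0752), -2.26 (adjusted p = 0.000142) without the Ly6Chi array, -0.45 (adjusted p = 0.0719) without the Ly6Clo array and -1.37 without the steady-state splenic array. On the Ly6Clo array dendritic cell markers had the mean of 10.01 given above. Mertk, Stab1 and Pros1 on this array were also the lowest of the colonic arrays, at 7.23, 7.90 and 7.28. Its Axl and Gas6, at 9.31 and 8.15, were above those of Ly6Chi cells. The part of dendritic cells in these values and in its low Lrp1 was not tested.

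Dab2, an adaptor in clathrin-mediated uptake that macrophages and absorptive epithelium both express, was high in all colonic arrays. It was at 12.59, 12.40, 12.63 and 12.65 in resident, reconstituted, steady-state F4/80hi and colitis F4/80hi cells and at 11.68 and 11.64 in Ly6Clo and Ly6Chi cells. Splenic monocytes had 4.76 at steady state, which is dim, and 7.12 in colitis. CX3CR1hi cells were 6.63 above splenic cells (SE 0.53, limma adjusted p = 6.44e-05) and CX3CR1int cells 5.72 above them (SE 0.62, limma adjusted p = 0.00106). These became 5.45 and 4.54 without the steady-state splenic array. CX3CR1int and CX3CR1hi cells did not overlap, and their difference of -0.91 (SE 0.53, limma adjusted p = 0.233) was called once either splenic array was left out (adjusted p = 0.00666 without steady state and 0.00664 without colitis). A second Dab2 probe set was dim on all arrays, at 4.10 to 4.46, and averaging both moved the differences from spleen to 3.33 and 2.92, both still called, and that between the colonic populations to -0.41.

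Dab2 and epithelial RNA were ordered alike over the populations. Mertk, Gas6 and Stab1 had the same order, from CX3CR1hi through CX3CR1int to colitis and then steady-state splenic cells. The 16 epithelial markers had means of 10.81 to 11.69 in the CX3CR1hi arrays, 9.51 and 9.74 in the CX3CR1int arrays, and 4.91 and 5.83 in spleen. Within the spleen Dab2 was at 7.12 in colitis against 4.76 at steady state. Beside it the epithelial mean was 5.83 against 4.91, with 7 of 16 and 0 of 16 markers above the median. Krt8, an epithelial keratin, was at 7.14 against 5.58 and Muc2, the goblet cell mucin, at 7.44 against 5.06. Some others were dim on both splenic arrays and no higher in colitis. Among them were Krt20, a keratin of surface epithelium (4.70 against 4.73), Vil1 (4.87 and 4.87) and Tspan8 (4.82 against 5.08). Within the CX3CR1hi arrays the epithelial mean went from 11.69 in resident to 10.81 in colitis F4/80hi cells, while Dab2 was at 12.59 and 12.65. Single markers differed here: Krt20 went from 10.15 to 8.20 and Krt8 from 12.94 to 12.46, while Muc2 was at 12.84 and 12.83. The part of epithelial RNA in the results of Dab2, Mertk, Gas6 and Stab1 was not tested.

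Read as a set, 8 of the 10 genes passed the filter (at or above the array median on at least 2 arrays) and were tested. Gas6 passed through its colonic arrays alone, and Mertk, Stab1 and Dab2, bright on 1 splenic array each, also needed colonic arrays to pass. A difference from spleen was thus favoured by the filter for 4 of the 5 genes called higher there, and the counts below describe the genes without supporting one another. The members were also chosen with earlier results of these data known. Their counts beside the shares of all genes are therefore a description and not a test. In CX3CR1hi against splenic cells 5 were called higher (Mertk, Axl, Gas6, Stab1 and Dab2), where 22.2% of all tested genes were, and 0 lower, where 29.0% were. In CX3CR1int against CX3CR1hi cells 0 were called higher (background 13.3%) and 4 lower (Mertk, Axl, Gas6 and Stab1, background 16.6%). In CX3CR1int against splenic cells 4 were called higher (Mertk, Gas6, Stab1 and Dab2, background 10.2%) and 1 lower (Pros1, background 14.2%). The median log2 difference of the 8 genes was 3.35, -1.49 and 0.88 in these comparisons, beside -0.12, 0.01 and -0.08 over all tested genes. The comparisons share arrays, and the arrays of a population differ in colitis, origin, Ly6C or sex label, so the tests measure differences against that spread and not against repeated samples of a group.

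**Figure D3:**
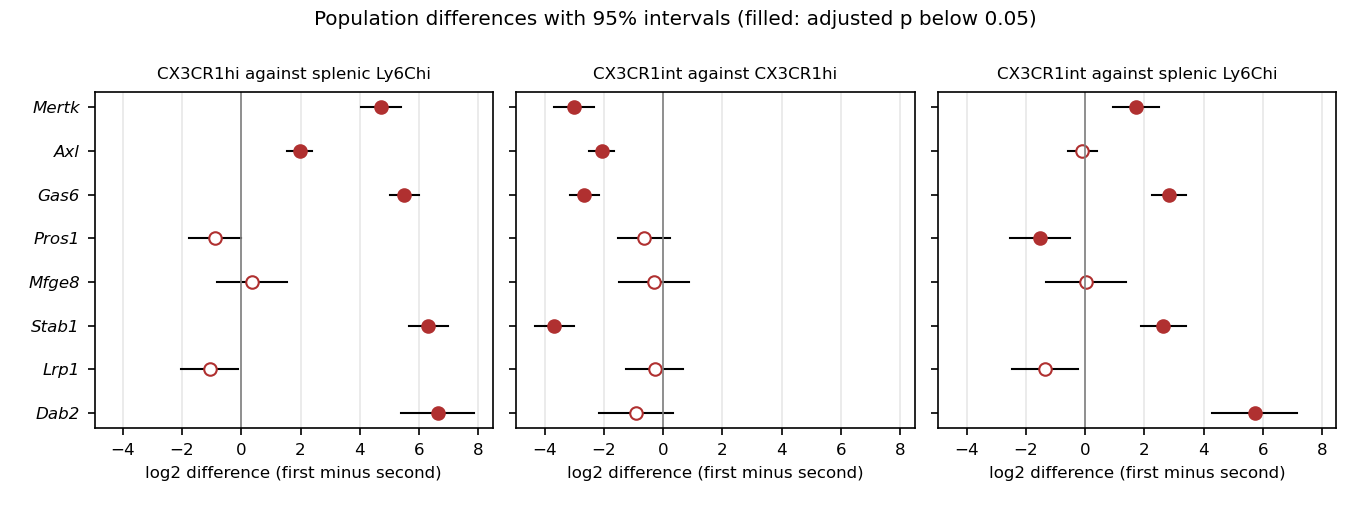
Log2 difference between populations, first minus second (horizontal axis), for each of the 8 tested genes (vertical axis), in 1 panel per comparison, with bars for the 95% interval of the limma fit and filled points for calls. Mertk, Gas6 and Stab1 lie to the right of 0 against spleen and to the left of 0 for CX3CR1int against CX3CR1hi, while Mfge8 has intervals that cross 0 throughout.

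Comparisons of single arrays have no replicate check, and a gene entered where the brighter array reached its median. The steady-state F4/80hi and resident arrays, both of steady-state colonic CX3CR1hi cells but of different sex label, had 0 of 8 members at least 2-fold apart, against 3.64% of all genes, and the largest differences were 0.28 for Mertk and -0.28 for Gas6. Reconstituted against resident macrophages had 1 of 8 apart (1.76% of genes), Mfge8 at 1.78, and Pros1 differed by -0.90. Against the steady-state F4/80hi array in place of the resident one, Pros1 was at -1.11 and Mfge8 at 1.88, so 2 were apart. The other members of the reconstituted array lay within 0.44 of resident cells.

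Colitis and steady state were compared in F4/80hi cells and in splenic monocytes, with 1 array on each side. The splenic arrays also differed in sex label, and the steady-state one carried both Xist and Y-linked RNA. Colitis and sex cannot be told apart in that pair. Between colitis and steady-state F4/80hi cells 0 of 8 members were 2-fold apart. Few of all genes were (1.47%), so the count tells nothing particular about the members. Gas6 at 0.45, Stab1 at 0.37 and Pros1 at -0.41 were the largest differences. In splenic monocytes 2 of 7 were at least 2-fold higher in colitis, Stab1 by 1.03 and Dab2 by 2.36. Of all genes 0.708% were that far apart in either direction. The epithelial values given beside Dab2 hold here too. The Stab1 pair started from a dim value of 4.97. Mertk was 0.54 higher in the colitis splenic array (6.30 and 5.77).

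Within colitis, 6 of 8 members were at least 2-fold higher in F4/80hi than in Ly6Clo cells (19.1% of genes in either direction). These were Stab1 (4.19), Mertk (3.56), Gas6 (2.53), Axl (1.83), Lrp1 (1.27) and Pros1 (1.24), with Dab2 just below at 0.97. Ly6Clo cells were lower than Ly6Chi cells by at least 2-fold in 3 of 8 (12.0% of genes in either direction). These were Lrp1 at -1.81, Pros1 at -1.16 and Mertk at -1.03, while Axl and Gas6 were 0.62 and 0.61 higher. Ly6Chi colonic cells exceeded colitis splenic monocytes, which share the Ly6C label, in 4 of 8 (13.7% of genes in either direction). The differences were 1.96 for Mertk, 2.37 for Gas6, 2.34 for Stab1 and 4.52 for Dab2. At steady state, resident macrophages and splenic monocytes were apart in 6 of 8 (28.4% of genes), and Lrp1 was the one with the lower value in resident cells, at -1.17.

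Other genes of dying-cell clearance were read from 8 lists, also chosen with earlier results of these data known. They held 125 genes, of which 119 were measured and 102 passed the filter. In CX3CR1hi against splenic cells 30 were called higher and 28 lower, with a median of -0.04. These are 29.4% and 27.5%, near the 22.2% and 29.0% over all tested genes, whose median was -0.12, and the counts by list below are read against the same shares. Among other bridging proteins 5 of 8 were called higher and 1 lower (median 1.70). The 5 included C1qa, C1qb and C1qc, chains of 1 complement protein, C1q, that coats dying cells, so they are not separate cases. C1qa was 5.55 (SE 0.36, limma adjusted p = 2.69e-05), C1qb 4.09 (SE 0.20) and C1qc 5.22 (SE 0.32, limma adjusted p = 2e-05) higher. Anxa1, a phosphatidylserine-binding annexin of myeloid cells, was lower at -1.70 (SE 0.18). In CX3CR1int cells 0 of the 8 were called higher and 4 lower than in CX3CR1hi cells, beside 13.3% and 16.6% of all genes. The 4 again included these C1q chains.

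Among uptake receptors 4 of 18 were called higher and 7 lower (median -0.14), or 22.2% and 38.9%, the first of which equals the share over all genes (22.2%, with 29.0% lower). Mrc1, the mannose receptor, was 4.28 higher (SE 0.25) and Cd14, which tethers dying cells, 2.25 higher (SE 0.59). Cd300lb and Cd300lf, lipid receptors of myeloid cells, were lower at -2.30 (SE 0.49) and -1.89 (SE 0.61). Among engulfment signalling genes 8 of 18 were called lower and 1 higher (median -0.26), or 44.4% and 5.56%. Elmo2 and Dock5, which activate the GTPase Rac, were lower at -1.75 (SE 0.17) and -1.46 (SE 0.26), and Bcar1, a docking protein, was 1.01 higher (SE 0.24). In CX3CR1int against CX3CR1hi cells 8 of these 18 were called higher and 3 lower, beside 13.3% and 16.6% of all genes.

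Corpse digestion genes had 3 of 19 called higher and 7 lower (median -0.29), or 15.8% and 36.8% beside 22.2% and 29.0% of all genes, with the lysosomal protease Ctsd at 1.21 (SE 0.34) and the autophagy genes Atg7 and Uvrag at -1.11 (SE 0.20) and -0.63 (SE 0.11). Sterol handling genes, which serve to export the cholesterol of an engulfed cell, had 6 of 10 higher and 2 lower (median 0.76), or 60.0% and 20.0%. Abca1, the cholesterol exporter, was 3.70 higher (SE 0.57) and the lipid carrier Apoe 1.63 higher (SE 0.38), while Abca7 was lower at -2.23 (SE 0.16) and Abcg1 at -0.46 (SE 0.17). In CX3CR1int cells 5 of these 10 were called lower than in CX3CR1hi cells and 1 higher, beside 16.6% and 13.3% of all genes. Find-me and keep-out signals had 5 of 11 higher and 1 lower (median 0.84), or 45.5% and 9.09%, the latter Cd47, the signal against engulfment, at -1.40 (SE 0.25). Cd24a (2.48, SE 0.25), which epithelium also expresses, was among the 5 called higher, beside the epithelial marker means given above.

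Among genes that modulate TAM signalling 3 of 7 were called higher and 0 lower (median 0.04), beside 22.2% and 29.0% of all genes, including Socs3, a brake on cytokine signalling, at 2.15 (SE 0.39) and Vkorc1, which recycles the vitamin K that Gas6 and Pros1 need, at 1.05 (SE 0.14). Vkorc1 was lower in CX3CR1int than in CX3CR1hi cells at -1.50 (SE 0.14, limma adjusted p = 0.000469). Endocytic partners of Dab2 and Lrp1 had 3 of 11 higher and 2 lower (median -0.01), or 27.3% and 18.2%. Myo6, a motor that binds Dab2 and is also found in epithelium, was 3.69 higher (SE 0.31) and Lrp6 1.87 higher (SE 0.15), and Ap2a2 and Snx17 were lower at -0.50 (SE 0.18) and -0.48 (SE 0.11). Each named gene was called at a limma adjusted p below 0.05 in CX3CR1hi against splenic cells. Over all lists, 17 genes were called higher and 26 lower in CX3CR1int than in CX3CR1hi cells (16.7% and 25.5%, with 13.3% and 16.6% of all genes), and 12 higher and 17 lower in CX3CR1int than in splenic cells (11.8% and 16.7%, with 10.2% and 14.2%).

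**Figure D4:**
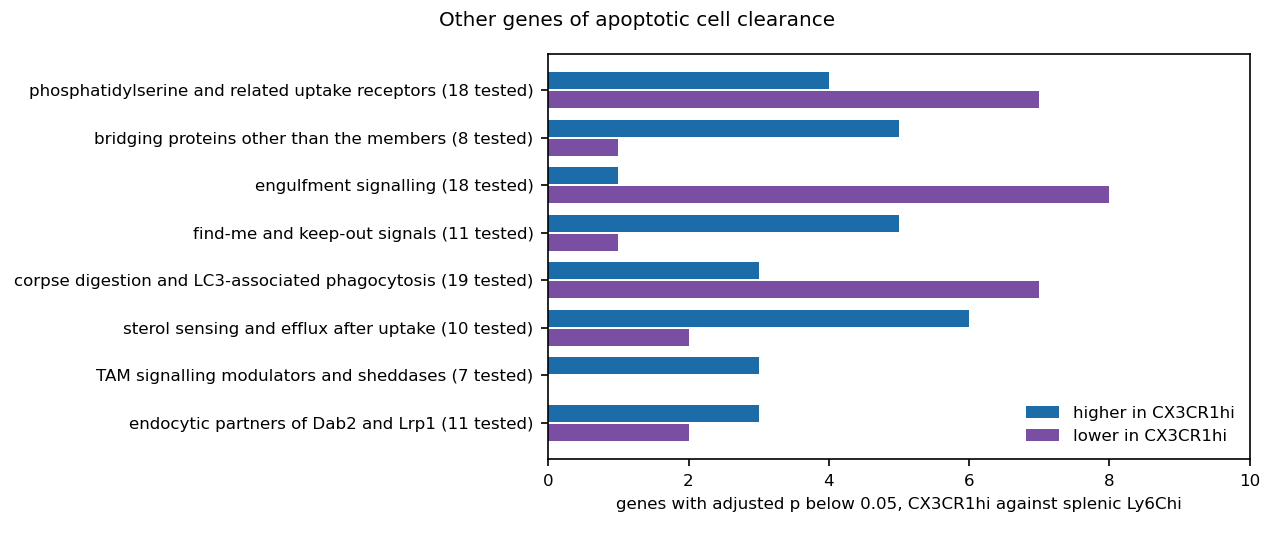
Number of genes of each list called higher or lower (horizontal axis) by list (vertical axis) in CX3CR1hi against splenic cells. Bridging proteins and sterol handling have more called higher than lower (5 and 1, 6 and 2), and engulfment signalling the reverse (1 and 8).

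The genes with the most similar profiles were found by the smallest root mean square difference of levels centred on each gene's mean over the 8 arrays, among 10233 genes. For Mertk these were the complement receptor C3ar1 (0.38), the tetraspanin Cd81 (0.40) and Dip2c (0.40). For Axl they were Gna12 (0.13), Pald1 (0.14) and Cd22 (0.15), and for Gas6 they were Gdpd1 (0.19), Pmepa1 (0.20) and Plxdc2 (0.31). Stab1 lay nearest to the integrin Itga9 (0.38), the chemokine Pf4 (0.44) and C1qa (0.47). Pros1 lay nearest to Clec4a1 (0.16), Tlr13 (0.27) and Mindy2 (0.27), and Lrp1 to Aldh3b3 (0.14), Igsf6 (0.16) and Lst1 (0.16). Dab2 lay nearest to genes of gut epithelium, Lypd8 (0.24), Dmbt1 (0.31) and Krt8 (0.32). Lypd8 was at 12.27 to 13.27 on the colonic arrays, 5.10 in steady-state and 7.94 in colitis splenic monocytes. These distances are descriptions over 8 arrays that share the same populations. Mfge8, Tyro3 and Stab2 ranged over less than 2 and were not matched.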

How the data were processed

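Total RNA of sorted mouse cells was hybridised to 8 Affymetrix arrays, 1 a group. The deposited values are log2 intensities, and the authors used RMA (background correction, quantile normalization and probe set summary) and Partek, per the submitters' processing notes; versions and genome build are not given in the sources used here. Of 35399 probe sets 21789 carried 1 gene symbol, 1621 several, and 11989 were unlisted; Entrez identifiers of 21698 matched RefSeq, which changed 0 symbols.

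The populations CX3CR1hi (4 arrays), CX3CR1int (2) and splenic Ly6Chi (2) were compared in R 4.3.3 by lmFit and eBayes of limma 3.58.1 (5 residual degrees of freedom) over 10673 genes, with Benjamini-Hochberg adjustment and a call below 0.05. The script was tested on simulated data with independent noise. Those data held no differences of colitis, origin, Ly6C or sex within a population, so that test cannot show how such differences affect the calls. Median standard errors were 0.167, 0.167 and 0.192. Single arrays were compared as differences, with no test. Python 3.11.15 with numpy 2.4.6, pandas 2.3.3 and matplotlib 3.10.9 did the rest. The number of arrays limits the precision.

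Named genes were all members, up to 2 genes with the largest positive and 2 with the largest negative called differences per list, and the 3 nearest profiles. C1qb was named beside the other C1q chains. Members and lists were chosen with earlier results of these data known. Alternatives were no brightness filter, a 75th percentile filter, the mean of probe sets, centred arrays, repeated quantile normalization, sex as labelled as a block (the steady-state splenic array as female), the arrays of 2 populations alone, a 2-fold minimum, a prior that was trended and robust, other comparison arrays and leaving out each array. Some genes of the lists are not reported here, and a planned protein comparison was not run.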

Additional observations from a re-analysis of the deposited data

Results flagged for a closer look

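Mfge8 at 9.40 on the reconstituted array stood apart from the other CX3CR1hi arrays, which lay between 7.51 and 7.62, so that the gap to its nearest neighbour made up 0.943 of the range of the 4 arrays. Stab1 at 12.09 on the colitis F4/80hi array stood apart from 11.69 to 11.72, with a gap of 0.939 of the range. Both exceeded Dixon's critical value for 4 values at 95%. All 10 members were examined in this way, and chance flags about 1 in 20 groups.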

How the results depend on the processing

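The 5 members called in CX3CR1hi against splenic cells and the 4 called in CX3CR1int against CX3CR1hi cells were called in every alternative run. In CX3CR1int against splenic cells 5 members were called, 3 with the arrays of these populations alone (Mertk and Pros1 lost), and 3 to 6 with each array left out. Genes called there fell from 2605 to 1092, 619 and 877 with those arrays alone, without the steady-state and without the colitis splenic array; fewer arrays remained. Genes called in CX3CR1hi against splenic cells fell from 5466 to 3119 and 3306 without the same splenic arrays, and those in CX3CR1int against CX3CR1hi cells from 3186 to 1992 with sex as a block. The direction of Lrp1 in CX3CR1int against CX3CR1hi cells turned to 0.62 without the Ly6Clo array, in a range of -1.20 to 0.62 with each array left out; the cause was not tested beyond the split of the pair itself. Sex as a block kept those 9 calls and lost Pros1. Among single arrays, members 2-fold apart went from 1 to 2 for reconstituted cells against the steady-state F4/80hi array, from 0 to 1 for colitis F4/80hi against reconstituted cells, where Mfge8 differed by -1.78, and from 2 to 0 under the 75th percentile filter and to 1 with the mean of probe sets for splenic monocytes. Of 95 recomputed counts 89 stayed within 1.5 times the main count. The all-gene median shifted by less than 0.1 under centring and under a repeated quantile normalization. No paired analysis was possible because each group has 1 array. Dim levels limit the splenic values of Mertk, Gas6, Stab1 and Dab2.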
